A study of Mus musculus with 5 samples.

Results

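The 10 genes described here encode the enzymes that hydroxylate and crosslink collagen, together with its dedicated chaperone. They were taken by gene symbol from 55250 usable rows of the deposited expression table, and all 10 were found. Earlier results of these data were known when they were chosen. P4ha1, P4ha2 and P4ha3 encode the catalytic alpha subunits of collagen prolyl 4-hydroxylase, and P4hb encodes its beta subunit, protein disulfide isomerase. Plod1, Plod2 and Plod3 encode the lysyl hydroxylases. Lox and Loxl2 encode lysyl oxidases, and Serpinh1 encodes the collagen chaperone HSP47.

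RNA was sequenced from primary mouse cells that the labels give as sorted polymorphonuclear myeloid-derived suppressor cells (PMN-MDSCs), neutrophil-lineage cells that restrain T cells in tumor-bearing hosts. The lung group had 3 libraries (numbers 1, 2 and 3) and the tumor group had 2 (numbers 2 and 3). All were labelled wild type with no other treatment. The sources used here do not give the strain, the age of the mice, the tumor model or the sort markers. Going by its title, the series belongs to work on galectin-1, tumor STING activity and MDSC recruitment in metastasis. Separate animals are not stated for the libraries. The p-values therefore measure only the spread among these 5, part of which may be technical.

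Collagen chains are modified inside the endoplasmic reticulum before they fold into a triple helix. Prolyl 4-hydroxylase adds the hydroxyl groups that keep the helix stable at body temperature, and lysyl hydroxylases prepare lysines for sugar attachment and for crosslinks. Both enzyme families need iron, ascorbate, oxygen and 2-oxoglutarate. HSP47 binds the folded procollagen and leaves it on the way to the Golgi. Outside the cell, the copper-dependent lysyl oxidases oxidise lysines so that fibres crosslink. Fibroblasts, and many epithelial tumor cells under low oxygen, are known for high levels of these enzymes.

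The tumor libraries departed from their label in marker genes, which bears on every result below. Abundance is given as TPM, a length-corrected share of all transcripts. The summed TPM of 7 neutrophil markers ranged from 32528 to 53112 in lung and was 959 and 3383 in tumor libraries 2 and 3. For 4 pan-leukocyte markers it ranged from 4891 to 5236 in lung and was 250 and 849 in tumor, and every gene of both lists fell. All 7 epithelial markers rose, from sums of 54.5 to 104 TPM in lung to 5800 and 5815 TPM in tumor. Of 8 fibroblast markers, 7 were tested and 3 rose, with sums of 10.7 to 17.5 TPM in lung and 178 and 32.4 TPM in tumor. All 5 endothelial markers fell, from sums of 85.4 to 151 TPM to 9.02 and 20.9 TPM. The sum of 4 macrophage markers ranged from 509 to 618 TPM in lung and was 227 and 557 TPM in tumor, with 1 gene higher and 2 lower. That of 4 mural cell markers ranged from 10.01 to 10.7 TPM and was 8.77 and 11.97 TPM, with 1 of 2 tested genes higher and 1 lower. No marker was listed at 0 in any library. The part of other cell types in the results below was not tested, and in such bulk samples fewer cells of a type and less RNA per cell cannot be told apart.

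Of the 10 genes, 4 rose in tumor and 0 fell. The risers were Plod2, P4ha2, P4ha1 and P4hb. Testing was limited to the 16387 genes whose TPM averaged 1 or more across libraries, and 8 of the 10 were among them. A call needed an adjusted p under 0.05 (limma, Benjamini-Hochberg over all tested genes) and at least a 1.5-fold difference. By that rule 31.6% of all tested genes were higher and 27.0% lower, 58.6% together, so many genes moved in both directions. Both tumor values lay above every lung value in 7 of the 10 genes, against 24.5% of genes above 0 in a library, and in 6 of the 8 tested genes, against 39.9% of all tested genes. P4ha3 and Plod2 reached the 1 TPM mean only through their tumor levels. Without that filter 4 of the 10 genes were again higher and 0 lower, against 14.5% of 34930 genes higher and 12.4% lower. Differences are given as log2(TPM + 1), tumor minus lung, with ± SE, a scale that compresses changes of weakly expressed genes. In the authors' deposited table, none of the 10 genes had a false discovery rate under 0.05, a level that 0.638% of its genes reached. The lowest value there was that of P4hb, with a p-value of 0.0477 and a false discovery rate of 0.214.

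**Figure D1:**
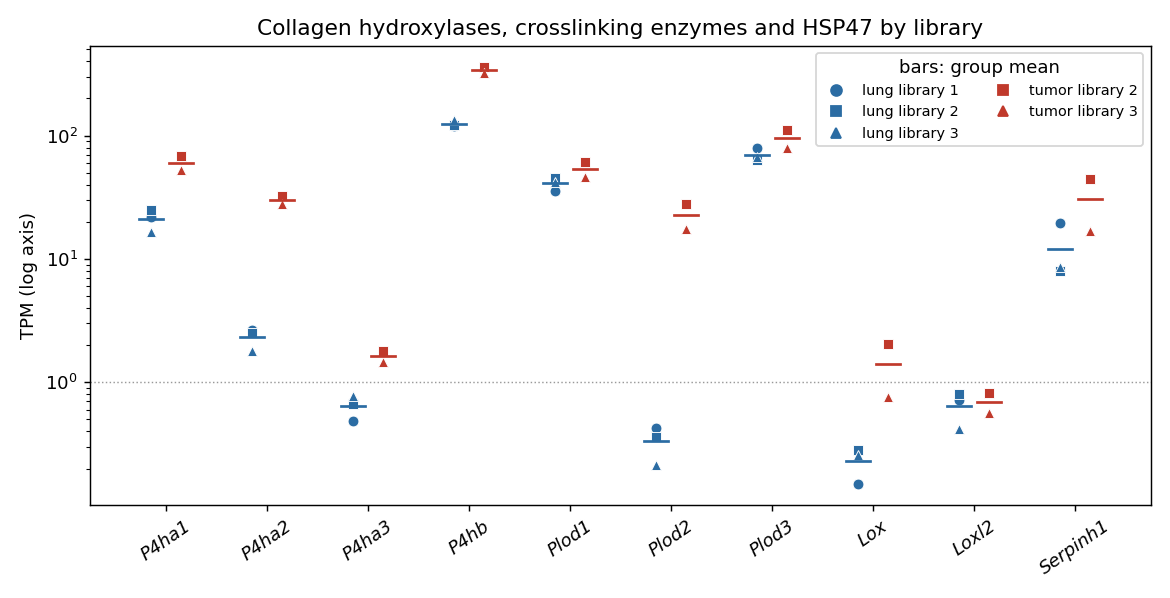
TPM of the 10 genes in every library on a log axis. Circles, squares and triangles mark libraries 1, 2 and 3, blue is lung, red is tumor, horizontal bars are group means (n = 3 lung, n = 2 tumor), and the dotted line marks 1 TPM. Plod2 and P4ha2 show the widest gaps between tissues, and Loxl2 shows overlap below 1 TPM in both.

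Promoter sequence is shown for the risers because P4ha1, P4ha2 and Plod2 are textbook targets of hypoxia-inducible factor (HIF), whose binding sites share the core ACGTG or GCGTG. RefSeq promoters (GRCm38.p6) were matched by symbol for 7 of the 10 genes, and Plod2, Lox and Loxl2 were not among them. The windows below hold the 250 bases before the annotated start, 5′ to 3′ on the gene's strand, with HIF cores on either strand (also read as CACGT and CACGC) in capitals. P4ha1, P4ha2 and P4hb rose, and Plod3, which was not called, is set beside them. The windows are chr10:59323046-59323295 (plus strand), chr11:54100674-54100923 (plus strand), chr11:120573254-120573503 (minus strand) and chr5:136986769-136987018 (plus strand).
P4ha1: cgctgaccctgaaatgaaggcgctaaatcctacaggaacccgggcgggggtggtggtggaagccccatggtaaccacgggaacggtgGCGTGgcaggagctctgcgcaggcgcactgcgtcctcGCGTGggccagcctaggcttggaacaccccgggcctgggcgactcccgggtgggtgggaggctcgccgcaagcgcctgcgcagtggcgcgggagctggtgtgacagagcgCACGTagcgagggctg
P4ha2: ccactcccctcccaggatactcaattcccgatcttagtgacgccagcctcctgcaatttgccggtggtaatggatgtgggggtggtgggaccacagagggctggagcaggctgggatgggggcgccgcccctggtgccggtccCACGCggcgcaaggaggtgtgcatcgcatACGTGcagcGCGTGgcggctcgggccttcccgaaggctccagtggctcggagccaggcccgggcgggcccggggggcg
P4hb: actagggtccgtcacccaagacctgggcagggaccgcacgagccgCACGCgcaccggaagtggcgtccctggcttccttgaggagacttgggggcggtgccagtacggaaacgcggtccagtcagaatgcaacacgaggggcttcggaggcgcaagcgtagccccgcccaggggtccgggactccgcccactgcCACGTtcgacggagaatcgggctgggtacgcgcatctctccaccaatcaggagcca
Plod3: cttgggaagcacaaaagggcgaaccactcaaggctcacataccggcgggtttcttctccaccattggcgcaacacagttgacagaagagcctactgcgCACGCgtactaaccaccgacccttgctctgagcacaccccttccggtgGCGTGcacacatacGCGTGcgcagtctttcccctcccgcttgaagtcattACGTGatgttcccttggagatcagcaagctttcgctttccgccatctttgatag

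The windows of P4ha1 and P4ha2 each held 3 HIF cores, that of P4hb held 2 and that of Plod3 held 4, with no overlap among these matches. Of the 7 windows, 6 held at least 1 core, the exception being P4ha3. The same was true of 38.8% of all 32544 promoter windows, and of 58.8% of the 13071 windows with a GC content of at least 55.6%, the lowest among the 7. A CCAAT box (CCAAT) was found in 2 of the 7 windows and in 33.8% of all windows, and a GC box (GGGCGG) in 6 and in 33.0%. The heat shock pair GAANNTTC was found in 0 of the 7 windows and in 6.72% of all windows. Both strands were searched. These are letter matches, present in genes that rose and in genes that were not called, and no binding was measured. The M21 model of P4ha2 starts upstream of this RefSeq start, so its window lies inside that gene model but outside its exons.

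Among the catalytic subunits of prolyl 4-hydroxylase, P4ha1 and P4ha2 rose. P4ha1, the most abundant alpha subunit in every library, was at 21.8, 24.9 and 16.4 TPM in lung and at 67.9 and 52.8 TPM in tumor. Both tumor values lay above all lung values, and the difference was 1.48 ± 0.24 (2.87-fold on mean TPM, adjusted p = 0.00521). P4ha2 was at 2.65, 2.53 and 1.80 TPM in lung and at 32.5 and 27.8 TPM in tumor. The groups were far apart and each was narrow, with a difference of 3.23 ± 0.21 (13.0-fold, adjusted p = 0.00101). P4ha3, the least abundant alpha subunit, was at 0.485, 0.662 and 0.775 TPM in lung and at 1.78 and 1.46 TPM in tumor. Its groups did not overlap, but the difference of 0.68 ± 0.28 missed the threshold (adjusted p = 0.0932). It passed without the intensity trend (adjusted p = 0.0288) and without moderation of the variance (adjusted p = 0.0285). By the GENCODE M21 annotation of GRCm38, P4ha1 lies on chromosome 10 from 59323296 to 59373304, P4ha2 on chromosome 11 from 54100095 to 54131665 and P4ha3 on chromosome 7 from 100285520 to 100319699, all on the plus strand.

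The mix of alpha subunits differed between the tissues. P4ha1 made up 87.5% ± 1.10 (SD, n = 3) of the summed TPM of the alpha subunits in lung and 65.4% ± 1.47 (SD, n = 2) in tumor. P4ha2 made up 10.6%, 9.01% and 9.48% in the lung libraries and 31.8% and 33.9% in the tumor libraries. The share of P4ha3 was between 1.95% and 4.07% in lung and was 1.74% and 1.78% in tumor. The alpha subunits together stood at 24.9, 28.1 and 19.0 TPM in lung and at 102 and 82.1 TPM in tumor. These shares are a description and were not tested.

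P4hb, the beta subunit, also rose. It was at 119, 122 and 134 TPM in lung and at 361 and 321 TPM in tumor, and no values overlapped. The difference was 1.44 ± 0.15 (2.73-fold, adjusted p = 0.00175). P4hb was the most abundant of the 10 genes in every library and held 42.4% to 49.3% of their summed TPM in lung and 50.8% and 57.0% in tumor. Protein disulfide isomerase also folds proteins other than collagen, and P4hb exceeded the alpha subunits in all libraries. It stood at 4.76, 4.35 and 7.03 times their summed TPM in lung and at 3.53 and 3.91 times in tumor. P4hb lies on chromosome 11 from 120560298 to 120573253 on the minus strand (GRCm38).

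Other enzymes of disulfide formation in the endoplasmic reticulum gave a background for P4hb. Of 10 measured genes of the protein disulfide isomerase family and its oxidases, 7 rose and 1 fell, with a median difference of 1.82. Over all tested genes 31.6% rose and 27.0% fell, with a median difference of 0.018. With no filter 6 of the 10 rose and 1 fell, against 14.5% and 12.4% of all genes. Pdia3, a glycoprotein-folding isomerase, went from 103 to 350 TPM (1.76 ± 0.17, adjusted p = 0.00169), and Pdia4 went from 25.6 to 116 TPM (2.16 ± 0.24, adjusted p = 0.00208). Txndc5 went from 11.3 to 58.3 TPM (2.26 ± 0.24). Ero1l, the oxidase that recharges protein disulfide isomerase, went from 48.4 to 199 TPM (2.02 ± 0.23). The faller was its paralog Ero1lb, at 15.8, 12.9 and 17.3 TPM in lung and 6.86 and 7.26 TPM in tumor.

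Of the lysyl hydroxylases, Plod2 rose and Plod1 and Plod3 were not called. Plod2, the enzyme that hydroxylates lysines in the collagen telopeptides, was at 0.422, 0.358 and 0.215 TPM in lung and at 28.0 and 17.5 TPM in tumor. Every lung library was under 1 TPM and both tumor libraries were far above, with a difference of 4.12 ± 0.27 (adjusted p = 0.00104). The ratio of mean TPM was 68.5, a value that rests on very low lung levels with unknown read counts. Only 1.48% of tested genes had a larger difference. Relative to the other tested genes, the mean of Plod2 ranked above 4.22% of them in lung and above 72.0% in tumor. These ranks and the 1.48% cover only genes that passed the 1 TPM filter. Plod2 passed only through its tumor levels, so its low place in lung was partly set by that filter. With no filter its limma adjusted p was 0.00358. Plod2 lies on chromosome 9 from 92542223 to 92608428 on the plus strand (GRCm38).

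Plod1, which hydroxylates lysines within the helix, was at 35.7, 45.4 and 42.3 TPM in lung and at 61.3 and 45.8 TPM in tumor. The lower tumor library lay just above the highest lung library, and the difference of 0.36 ± 0.20 did not pass (adjusted p = 0.178). Plod3, which also carries a glycosyltransferase activity, was at 79.9, 63.1 and 66.8 TPM in lung and at 111 and 78.7 TPM in tumor. Its groups overlapped, with a difference of 0.42 ± 0.22 (adjusted p = 0.151). Without tumor replicate 2 the differences of Plod1 and Plod3 were 0.16 and 0.18, and without tumor replicate 3 they were 0.57 and 0.67. Plod3 remained the largest part of lysyl hydroxylase TPM in every library, with 57.9% to 68.9% in lung and 55.4% in both tumor libraries, while Plod2 was at 0.197% to 0.364% in lung and at 14.0% and 12.3% in tumor. Plod1 lies on chromosome 4 from 147909753 to 147936767 on the minus strand, and Plod3 on chromosome 5 from 136987019 to 136996648 on the plus strand (GRCm38).

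**Figure D2:**
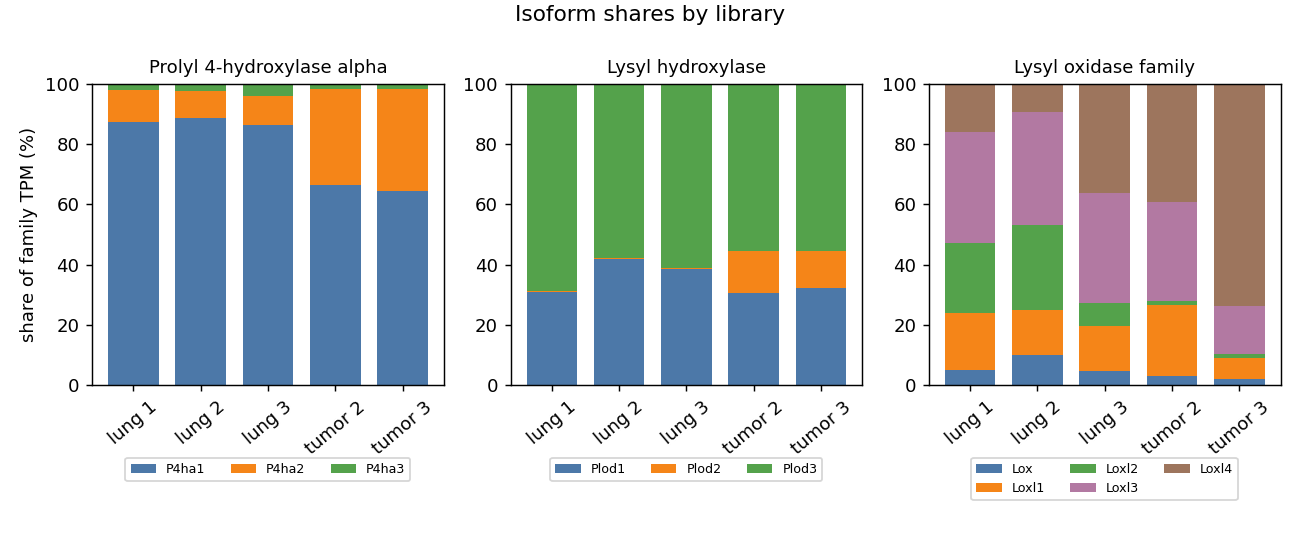
Stacked bars give each gene's share (%) of the summed TPM of its family in every library, for the alpha subunits of prolyl 4-hydroxylase, the lysyl hydroxylases and the lysyl oxidases. P4ha2 takes 31.8% and 33.9% in the tumor libraries against 9.01% to 10.6% in lung, Plod2 appears in tumor, and the lysyl oxidase mix differs between the tumor libraries.

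Serpinh1 had the largest SE of the 8 tested genes. The HSP47 gene was at 19.4, 7.97 and 8.55 TPM in lung and at 44.6 and 16.9 TPM in tumor. Tumor library 3 lay below lung library 1, so the groups overlapped, and the difference of 1.24 ± 0.56 did not pass (adjusted p = 0.113). The difference was 0.57 without tumor replicate 2 and 1.92 without tumor replicate 3, with adjusted p-values of 0.506 and 0.0747. Serpinh1 lies on chromosome 7 from 99345376 to 99353239 on the minus strand (GRCm38).

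The lysyl oxidases Lox and Loxl2 were weakly expressed and did not pass the 1 TPM filter. Lox, the founding member of the family, was at 0.151, 0.281 and 0.255 TPM in lung and at 2.05 and 0.756 TPM in tumor. Both tumor values were above the lung values, but the mean over all libraries was under 1 TPM. With no filter on low values its difference was 0.91 ± 0.28 (adjusted p = 0.0738). Loxl2 was at 0.716, 0.802 and 0.417 TPM in lung and at 0.824 and 0.568 TPM in tumor. The groups overlapped, and with no filter the difference was 0.05 ± 0.21 (adjusted p = 0.875). Loxl2 lies on chromosome 14 from 69609068 to 69695834 on the plus strand (GRCm38).

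The rest of the family stood higher in tumor than Lox and Loxl2 did. Loxl4 was at 0.494, 0.266 and 1.92 TPM in lung and at 26.0 and 26.9 TPM in tumor (3.95 ± 0.41, adjusted p = 0.00177). Loxl3 was at 1.12, 1.05 and 1.94 TPM in lung and at 22.01 and 5.68 TPM in tumor (2.41 ± 0.57, adjusted p = 0.0174). Loxl1 was at 0.578, 0.423 and 0.781 TPM in lung and at 15.6 and 2.50 TPM in tumor (2.26 ± 0.69, adjusted p = 0.0379). The tumor libraries were alike in Loxl4 and far apart in Loxl3 and Loxl1. The Loxl3 call ended without lung replicate 2 (adjusted p = 0.0563) and without moderation (adjusted p = 0.0725). The Loxl1 call ended when lung replicate 1, 2 or 3 was left out (adjusted p = 0.0843, 0.0996 and 0.0815), with all genes above 0 tested (adjusted p = 0.0767), without moderation (adjusted p = 0.117) and with libraries centred on their medians (adjusted p = 0.0517). Loxl4 held 39.1% and 73.9% of the family's TPM in tumor libraries 2 and 3, whereas Lox held 3.08% and 2.08% and Loxl2 held 1.24% and 1.56%.

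Set side by side per transcript length, the 10 genes kept much of their order between tissues. In lung, mean TPM fell from P4hb (125) through Plod3 (69.9), Plod1 (41.1), P4ha1 (21.1), Serpinh1 (11.99) and P4ha2 (2.33) to Loxl2 (0.645), P4ha3 (0.641), Plod2 (0.332) and Lox (0.229). Library values overlapped between P4ha1 and Serpinh1, between Loxl2 and P4ha3, between Loxl2 and Plod2, and between Plod2 and Lox. In tumor, the order was P4hb (341), Plod3 (94.8), P4ha1 (60.3), Plod1 (53.5), Serpinh1 (30.8), P4ha2 (30.2), Plod2 (22.8), P4ha3 (1.62), Lox (1.40) and Loxl2 (0.696). There P4ha1 and Plod1 overlapped, as did Serpinh1, P4ha2 and Plod2, and P4ha3 and Lox, and Lox and Loxl2. Plod2 stood below P4ha3 in every lung library and above it in both tumor libraries.

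Other HIF targets moved in part with these genes. Of 12 tested genes on a list of 14, 7 rose and 0 fell, against 31.6% and 27.0% of all tested genes. Their median difference was 0.83, against 0.018 over all tested genes. Vegfa, a growth factor for blood vessels, went from 34.7 to 103 TPM (1.55 ± 0.16, adjusted p = 0.0018), and Ldha, a lactate dehydrogenase gene, from 511 to 1675 TPM (1.72 ± 0.20, adjusted p = 0.00239). Pdk1 went from 15.1 to 53.2 TPM (1.82 ± 0.34) and Pgk1 from 159 to 415 TPM (1.40 ± 0.27). Leaving out tumor replicate 2 or 3 ended the Pdk1 call (adjusted p = 0.0713 and 0.0542), and leaving out tumor replicate 2 ended the Pgk1 call (adjusted p = 0.0747). The 5 tested genes that were not called are Slc2a1, Aldoa, Ankrd37, Kdm3a and Mxi1. Of 13 measured genes, both tumor values lay above all lung values in 9 and below them in 2, Kdm3a and Mxi1.

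The related lists held 35 further genes around collagen modification, folding, export and processing, copper and ascorbate transporters among them. Of these 29 were tested, and 20 rose and 3 fell, against 31.6% and 27.0% of all tested genes, with a median difference of 1.59. Of the 29, 8 reached the 1 TPM mean only through their tumor levels. With no filter 18 of the 35 rose and 2 fell, against 14.5% and 12.4% of all genes, and without moderation of the variance 13 rose. On the list of prolyl 3-hydroxylase family genes and partners, 5 of 6 genes rose, namely P3h1, P3h3, P3h4, Crtap and Ppib. P3h4, a scaffold of lysyl hydroxylation complexes, was at 0.749, 0.0535 and 0.209 TPM in lung and at 27.7 and 14.5 TPM in tumor (4.01 ± 0.38, adjusted p = 0.00161). Crtap, the partner of prolyl 3-hydroxylase, went from 2.55 to 34.9 TPM (3.31 ± 0.27). Ppib, a proline isomerase of the prolyl 3-hydroxylase complex, went from 75.5 to 211 TPM (1.47 ± 0.22). P3h1 went from 1.15 to 6.42 TPM (1.69 ± 0.37, adjusted p = 0.0139), a call that ended without moderation (adjusted p = 0.0502).

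Of 8 procollagen processing genes, 5 were tested and all 5 rose, against 31.6% of all tested genes. With no filter on low values 5 of the 8 rose, against 14.5% of all genes. The other 3 were under 1 TPM on average, and Bmp1, Adamts14 and Adamts2 passed that filter only through their tumor levels. Bmp1, the protease that removes the carboxyl propeptide and also activates lysyl oxidase, was at 1.42, 0.600 and 0.862 TPM in lung and at 73.1 and 58.85 TPM in tumor (5.11 ± 0.25, adjusted p = 0.000901). Pcolce, the enhancer of that protease, was at 3.16, 2.53 and 3.83 TPM in lung and at 336 and 138 TPM in tumor (5.71 ± 0.41, adjusted p = 0.00114). The amino-propeptidase genes Adamts14 (0.169 to 15.5 TPM, 3.78 ± 0.30) and Adamts2 (0.692 to 4.59 TPM, 1.73 ± 0.26) were among them, and Pcolce2 was the fifth.

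On the list of collagen glycosylation, folding and export, 6 of 9 tested genes were higher and 2 lower. Over all tested genes the shares were 31.6% and 27.0%. Colgalt1, the collagen galactosyltransferase, went from 25.3 to 59.5 TPM (1.21 ± 0.18, adjusted p = 0.00418). Sec24d, a coat protein for procollagen export, went from 11.98 to 72.7 TPM (2.54 ± 0.30) and the prolyl isomerase gene Fkbp14 from 0.859 to 4.91 TPM (1.60 ± 0.34). The fallers were Mia2 and Tmem38b. With no filter, 5 of all 12 listed genes rose and 1 fell, against 14.5% and 12.4% of all genes. The calls of Sec23a (adjusted p = 0.0569) and Mia2 (adjusted p = 0.058) ended there. Tmem38b, an ion channel gene of the endoplasmic reticulum, was at 27.6, 30.1 and 28.7 TPM in lung and at 3.26 and 7.16 TPM in tumor (-2.34 ± 0.31, adjusted p = 0.00304).

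Transcripts of 5 transporter and chaperone genes for copper and ascorbate were listed with the transglutaminase gene Tgm2. Copper and ascorbate themselves were not measured. Of the 6 genes, 1 rose and 1 fell, against 31.6% and 27.0% of all tested genes, with a median difference of -0.43. Both tumor values lay below all lung values in 3 of the 6 genes and above them in 2. Tgm2 was among those below, at 302, 277 and 390 TPM in lung and 94.9 and 238 TPM in tumor. It was not called (-1.08 ± 0.43, limma adjusted p = 0.0799). Atp7a, the copper pump that loads lysyl oxidases in the secretory pathway, was at 25.1, 31.5 and 30.0 TPM in lung and at 6.91 and 11.5 TPM in tumor (-1.58 ± 0.26, adjusted p = 0.0054). Slc31a1, the copper importer, went from 6.82 to 11.7 TPM (0.70 ± 0.17, adjusted p = 0.0179). The Slc31a1 call ended without tumor replicate 2 (adjusted p = 0.0923), without tumor replicate 3 (adjusted p = 0.0735) and, by its size of 0.51, with libraries centred on their medians.

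**Figure D3:**
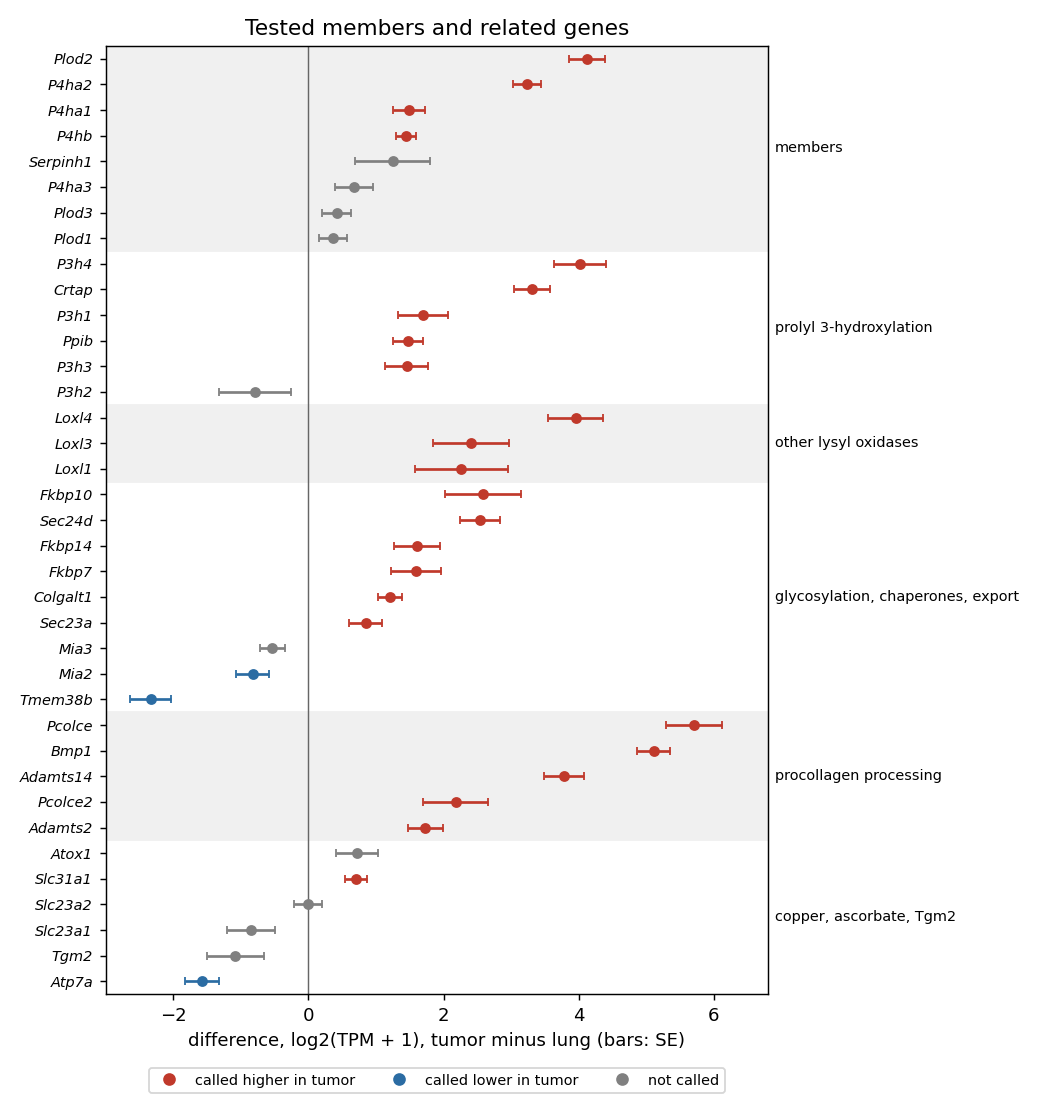
Differences in log2(TPM + 1), tumor minus lung, with SE bars from limma, for the 8 tested genes of the main group and 29 tested related genes by list. Red marks genes called higher in tumor, blue lower and grey not called. Plod2 at 4.12 and P4ha2 at 3.23 lead the main group, and Pcolce at 5.71 and Bmp1 at 5.11 lead the related genes.

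Most tested substrates of these enzymes rose as well. The list held 11 genes, collagens and elastin. Of the 10 tested, 8 rose and 1 fell, against 31.6% and 27.0% of all tested genes. Their median difference was 2.03, against 0.018 over all tested genes. Of the 10, 3 reached the 1 TPM mean only through their tumor levels. With no filter 7 of the 11 rose and 1 fell, against 14.5% and 12.4% of all genes. The 8 fibrillar collagen genes summed to 21.2, 21.4 and 14.4 TPM in lung and 1159 and 225 TPM in tumor, and the basement membrane genes Col4a1 and Col4a2 to 67.6, 39.1 and 44.5 TPM and to 224 and 184 TPM. Col3a1 was at 8.13, 12.9 and 7.04 TPM in lung and at 917 and 159 TPM in tumor (5.25 ± 0.77, adjusted p = 0.00416), and Col1a1 at 3.17, 2.70 and 1.77 TPM and at 159 and 33.9 TPM (4.42 ± 0.67, adjusted p = 0.00449). Col5a3 went from 0.739 to 18.7 TPM and Col4a2 from 17.9 to 81.4 TPM. The faller was Eln, which encodes elastin, at 5.44, 5.36 and 3.56 TPM in lung and 2.03 and 0.869 TPM in tumor.

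The tumor libraries differed from each other in these genes. All 10 genes were higher in tumor library 2 than in tumor library 3, as were 47.4% of all tested genes and 77.8% of the 5178 genes called higher in tumor. The ratio of library 2 to library 3 was smallest for P4hb (1.12) and P4ha2 (1.17), at 1.28 for P4ha1 and 1.60 for Plod2, and largest for Serpinh1 (2.65) and Lox (2.71). Over the same pair the fibroblast markers had a median ratio of 5.41 and were higher in library 2 in 7 of 7 tested genes, and the collagens and elastin had a median of 2.47. Epithelial markers had a median ratio of 0.979 and pan-leukocyte markers one of 0.290. With 1 library on each side this has no replicate check, and whether cell composition accounts for it was not tested.

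**Figure D4:**
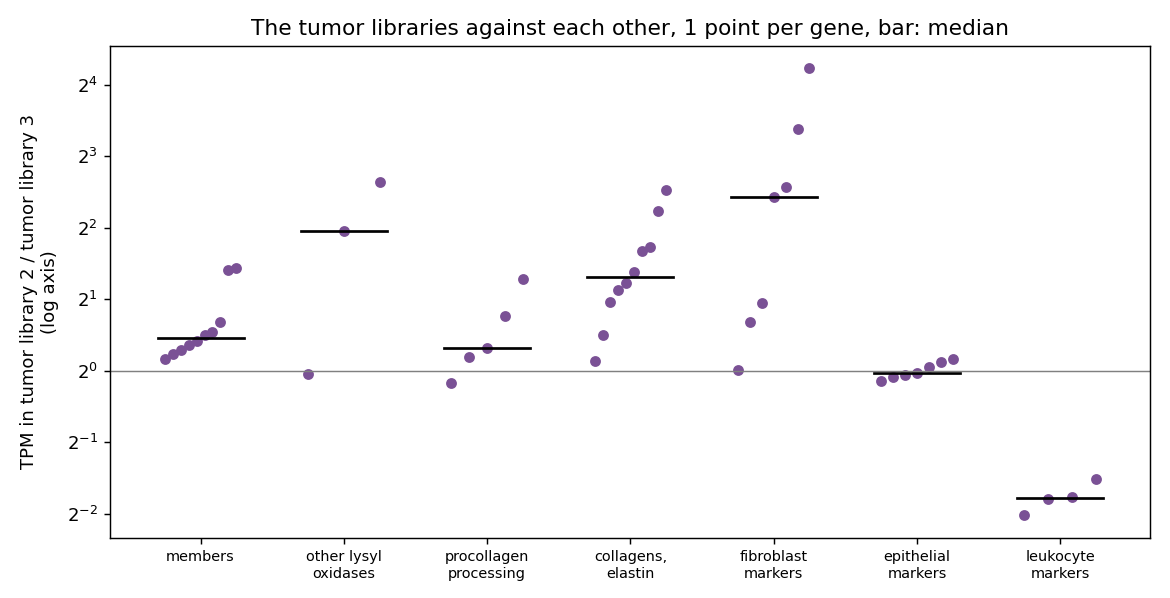
Ratio of TPM in tumor library 2 to tumor library 3 on a log axis, 1 point per gene, with the median as a bar, for all 10 genes and the tested genes of 6 lists. All 10 genes lie above 1, the fibroblast markers have a median of 5.41, the epithelial markers one of 0.979, and the pan-leukocyte markers one of 0.290.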

How the data were processed

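RNA from sorted cells was sequenced in 5 libraries, stated as 20000000 paired reads each per the labels. The authors used Salmon 0.9.1 with GENCODE mouse M24 transcripts, per the design text, and deposited TPM, summing to 1000000 per library. Read counts cannot be had from TPM. The reads behind each gene are therefore unknown, and no count test or detection limit was possible. The deposited p-values and false discovery rates are the authors' own and were only quoted. Of 55276 rows, 26 with a spreadsheet date or a blank in place of the symbol (0.0650% to 0.0826% of TPM) were left out.

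Tumor and lung were compared with limma 3.58.1 in R 4.3.3 on log2(TPM + 1) of all 5 libraries, with an intensity trend, two-sided. The steps were tested on simulated data. With 10 ways to split 3 and 2 libraries, an exact permutation test of a single gene cannot go below 0.1, so none was used. Named genes are all 10, up to 4 called genes with the smallest p in each related list, and every lysyl oxidase. Genes named only to complete a count of 5 or fewer, Ero1lb and Eln among them, were added after their values were seen. The values of Tgm2 were also added after they were seen. The genes and lists were chosen with earlier results of these data known. Of all listed symbols 3 were not found. Title numbers 2 and 3 are shared by both tissues, but nothing in the labels pairs them. Coordinates come from GENCODE M21 on GRCm38, matched by symbol. Alternatives covered pseudocounts, filters, scalings, variance models, fold limits, a replicate block and leaving out each library.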

Additional observations from a re-analysis of the deposited data

How the results depend on the processing

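The count of 4 higher and 0 lower among the 10 genes held under both other pseudocounts, both other filters, the robust fit, removal of mitochondrially encoded genes, centring on library medians, the fold limits, the replicate block and the omission of any library. It was 5 higher without the intensity trend and without moderation, through P4ha3, and 8 higher when libraries were centred on 4 pan-leukocyte genes. That centring moved the median difference of all tested genes from 0.018 to 3.49, gave 13351 genes higher and 62 lower against 5178 and 4431, left 0 related genes lower and turned the direction of Tmem38b (1.14) and Atp7a (1.90). Centring on library medians and leaving out mitochondrially encoded genes moved that median to -0.18 and 0.13, and the former gave 6 related genes lower against 3. Related genes called higher numbered 20, and 13 without moderation. Leaving out 1 library gave 3314 to 4817 genes higher and 2900 to 4134 lower, the lowest without tumor replicate 2, when the lone tumor library is assumed to vary like the lung libraries; the cause was not tested. Isoform shares rest on 3 and 2 libraries, and those of the lysyl oxidases in tumor depend on single libraries: Loxl4 was at 56.5% on average, and at 73.9% and 39.1% without tumor replicates 2 and 3, and Loxl1 at 15.2%, 6.87% and 23.5%. The P4ha2 share in tumor was 33.9% and 31.8% without them.

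With shared numbers as a replicate block, 4 of the 10 genes were higher and 11 related genes were higher, against 20 without it. The P3h1 call was among those that ended (limma, adjusted p = 0.0553). Deviations of same-numbered libraries from their group means correlated at 0.0034 and 0.083 across genes. Lung library 1 and tumor library 2, which differ in number, correlated at 0.082. With 2 tumor libraries the deviations mirror each other, so these values cannot decide whether the libraries are paired. TPM hides read counts, which limits what can be said of genes under 1 TPM, Lox and Loxl2 among them.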
